A study of Mus musculus with 2 samples.

Results

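Kidney cells that carried *Lyz2* and *Csf1r* but no more than 1 UMI of the C1q genes were examined in single-cell RNA-seq libraries of old and young MRL-*lpr* mice. A UMI is a molecular tag that counts 1 captured transcript. Both ages were MRL/MpJ mice with the *lpr* mutation of *Fas*, which develop lupus nephritis spontaneously as they age, and no mice without the mutation or with any treatment were in these libraries. Per the study's methods the young mice served as a control or mildly diseased group and the old mice as the severely diseased group, and the labels give age only as young or old. The kidneys of an age were pooled, leukocytes were enriched on a density gradient and with a pan-ILC kit that removes other leukocytes magnetically, and live cells were sorted, so the share of a cell type in a library is not its share in the kidney.

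Cells were selected on their own transcripts. Barcodes with fewer than 200 genes, or with more than 20% of UMIs from mitochondrial genes, were set aside, and the others are called kept cells. A kept cell was chosen by at least 3 UMIs of *Lyz2*, at least 1 of *Csf1r*, at most 1 summed over *C1qa*, *C1qb* and *C1qc*, and 0 UMIs of *Cd3d*, *Cd3e*, *Cd79a* and *Siglech*. This gave 574 of 21661 kept cells, 213 of 11429 in the young library and 361 of 10232 in the old library. They are called C1q-low cells below. Cells that met the other limits but held at least 5 C1q UMIs are called C1q-high cells and numbered 54 in the young and 45 in the old library. *Lyz2*, *Csf1r* and the C1q genes chose the cells, so their values are a description only.

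Monocytes are made in the bone marrow and circulate before some of them enter tissues. In mice, classical monocytes carry the surface protein Ly6C, encoded by *Ly6c2*, and the chemokine receptor CCR2, which guides their exit from the marrow and their entry into inflamed tissue. Nonclassical monocytes are low in Ly6C, depend on the transcription factor NR4A1 and patrol the wall of small vessels, including those of the kidney. Resident macrophages of the kidney make the C1q subunits that start the classical complement pathway, and monocytes make little C1q until they mature in tissue.

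The libraries held 145647185 (young) and 119218130 (old) UMIs in kept cells. There was 1 library per age, so no test between the ages was possible. The intervals given below are 95% intervals that cover counting error only, not the spread between mice or between cells. Levels are CPM, the summed UMIs of a gene as counts per 1e+06 UMIs of the cells named, and a log2 ratio of 1 is a 2-fold difference. Few barcodes were shared between the libraries (41, of which 1 was a C1q-low cell in both). Scrublet called 8 young and 13 old C1q-low cells doublets, and these were kept. The methods state female mice, whereas *Ddx3y*, *Eif2s3y*, *Kdm5d* or *Uty*, which lie on the Y chromosome, without *Xist* were seen in 54.9% of young and 48.8% of old C1q-low cells. Cells with *Xist* and no Y-linked UMI made up 17.4% and 28.8%, and the counts within each of these classes are given with the processing alternatives.

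C1q-low cells were 1.86% of kept cells in the young library (exact Clopper-Pearson interval, 1.62 to 2.13%) and 3.53% in the old library (3.18 to 3.9%). Of all cells passing the *Lyz2*, *Csf1r* and lineage limits, they made up 78.9% of 270 young cells (73.5 to 83.6%) and 88.5% of 408 old cells (85.0 to 91.4%). The C1q limit fell into an almost empty range. No C1q UMI was found in 211 young and 353 old C1q-low cells, 1 UMI was found in 2 and 8, and only 3 young and 2 old cells held 2 to 4 UMIs. The lowest C1q-high cells held 10 (young) and 8 (old) C1q UMIs, and their medians were 61.5 and 132. The other limits had more cells near them. A single *Csf1r* UMI was held by 32 young and 31 old C1q-low cells, and *Lyz2* was at 3 to 5 UMIs in 8 and 15. Outside the rule were 43 young and 26 old cells that missed only the *Lyz2* limit with 1 or 2 UMIs, and 99 and 75 that had enough *Lyz2* but no *Csf1r* UMI. Another 33 young and 102 old cells were left out for a lymphocyte or plasmacytoid marker.

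**Figure D1:**
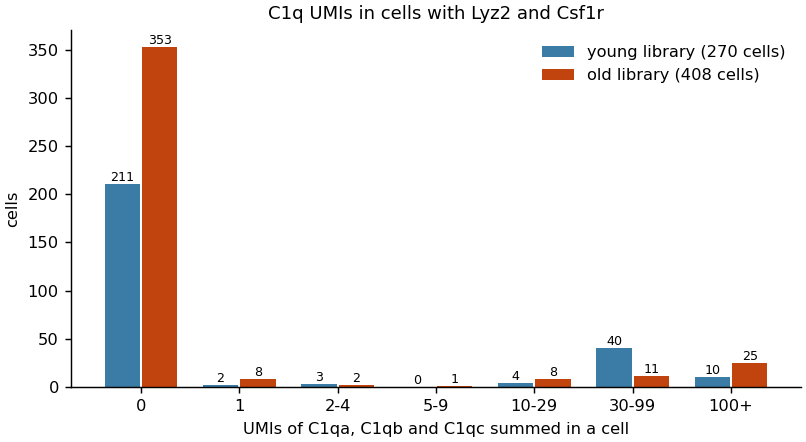
Number of cells (vertical axis) by the summed UMIs of *C1qa*, *C1qb* and *C1qc* (horizontal axis, unequal classes) among cells with at least 3 *Lyz2* and 1 *Csf1r* UMIs and none of the lineage markers, in the young (blue) and old (red) library. Most cells had no C1q UMI, and only 3 young and 2 old cells lay between 2 and 4 UMIs.

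Markers of blood monocytes were frequent in the C1q-low cells, but those named by the label were not in every cell. *Plac8*, a gene abundant in blood monocytes, was detected in 89.7% of young and 90.0% of old cells, at 2498 CPM (2432 to 2566) and 2936 CPM (2889 to 2984). *Ccr2* was detected in 77.0% of young and 40.4% of old cells, at 752 CPM (716 to 790) and 413 CPM (395 to 431). *Ly6c2* was detected in 49.3% and 42.1%, at 430 CPM (402 to 458) and 736 CPM (713 to 760). *Chil3*, which encodes a chitinase-like protein of classical monocytes, was detected in only 17.4% and 15.8%, at 59.6 and 51.8 CPM. *Lyz2*, encoding lysozyme, stood at 20665 and 14865 CPM. Of *Ly6c2*, *Ccr2*, *Plac8* and *Chil3*, 4 were detected together in 27 young and 49 old cells, 3 in 81 and 82, 2 in 52 and 41, 1 in 42 and 156, and 0 in 11 and 33. Markers of nonclassical monocytes were also detected, in shares that varied by gene. *Nr4a1* was present in 90.1% (young) and 92.8% (old), and *Treml4*, a receptor of nonclassical monocytes, in 40.4% and 70.4%. *Gngt2* was detected in 166 young and 334 old cells, *Eno3* in 58 and 195, *Cd300e* in 38 and 201, and *Fabp4* in 38 and 129.

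Detection depends on depth, since the median C1q-low cell held 9015 UMIs in the young and 11564 in the old library. After thinning every cell to 1000 UMIs, which left out 3 cells of each library, *Ly6c2* was detected in 21.0% of 210 young cells and 22.6% of 358 old cells. *Ccr2* was detected in 44.8% and 19.0%, *Plac8* in 75.7% and 66.5%, and *Treml4* in 14.3% and 21.5% of the thinned cells. Proximal tubule cells, which should lack these genes, had median depths of 11601 and 13540 UMIs and gave the background. Thinned in the same way, they showed *Ly6c2* in 0.20% (young) and 2.48% (old), *Ccr2* in 0.49% and 0.20%, *Plac8* in 2.66% and 3.75%, and *Treml4* in 0% and 0.03%. Unthinned, tubule cells showed *Ly6c2* in 0.61% and 5.72%, *Ccr2* in 1.45% and 0.95%, *Plac8* in 21.9% and 30.7%, and *Treml4* in 0.08% and 0.10%. The *Ccr2* share was thus higher in the young library and the *Treml4* share higher in the old library at equal depth, and both stood well above the background.

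Markers of other cell types were then counted. Of the tissue macrophage list of 23 genes, at least 3 were detected in 182 young (85.4%) and 306 old cells (84.8%), and the list summed to 3948 and 2347 CPM. It summed to 2047 and 2473 CPM in all other kept cells and to 16143 and 38642 CPM in C1q-high cells. Old C1q-low cells were thus not above the rest of their library, and the detection counts alone do not show macrophage transcripts made by these cells. At least 3 genes of the dendritic cell list of 14 were detected in 31 young (14.6%) and 18 old cells (4.99%), with sums of 668 and 123 CPM. In all other kept cells the dendritic cell list summed to 147 and 159 CPM. The lists of T cells, NK cells or ILCs, B or plasma cells and basophils or mast cells summed to between 3.57 and 63.3 CPM in C1q-low cells, and other epithelium or endothelium to 7.97 (young) and 11.5 CPM (old). At least 3 T cell markers were found in 2 young and 2 old cells. The rule had removed cells with *Cd3d*, *Cd3e*, *Cd79a* or *Siglech*, so low T and B cell values are partly set by the choice. The plasmacytoid dendritic cell list summed to 120 (young) and 121 CPM (old), under the same limit. The erythroid list summed to 2464 and 2.98 CPM, with at least 3 of its genes in 1 young and 0 old cells. The neutrophil list of 12 genes summed to 4578 and 6090 CPM. *Retnlg* with at least 3 UMIs, a gene of neutrophils, was found in 17 young (8.0%) and 36 old cells (10.0%), and these cells held *S100a8* at 9672 and 14328 CPM and *S100a9* at 17729 and 21856 CPM. *Cd209a* with at least 3 UMIs, a lectin gene of monocyte-derived dendritic cells, was found in 27 young (12.7%) and 4 old cells (1.1%). *Kap*, the kidney androgen-regulated gene of the proximal tubule, was present in 99.5% and 97.5% of C1q-low cells at 4455 and 5663 CPM. Genes of the proximal tubule list took 2% or more of the UMIs in 11 young and 17 old cells. Results without the *Retnlg*, the *Cd209a* and these tubule-RNA cells are given with the processing alternatives.

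C1q-low cells were split by the markers of classical and nonclassical monocytes. Cells with at least 3 *Ly6c2* UMIs (*Ly6c2*-high cells) numbered 76 in the young and 126 in the old library, 35.7% (29.3 to 42.5%) and 34.9% (30 to 40.1%) of C1q-low cells. Cells with no *Ly6c2* UMI and at least 3 UMIs summed over *Ace*, *Adgre4*, *Ear2*, *Eno3*, *Spn* and *Treml4* (nonclassical-marked cells) numbered 65 and 181, 30.5% (24.4 to 37.2%) and 50.1% (44.9 to 55.4%). The remaining 72 young and 54 old cells were 33.8% and 15%. These limits were set on the data, so the genes that define the groups are no result. At 1000 UMIs per cell, cells with a UMI of these 6 markers and none of *Ly6c2* made up 34.8% of young (28.3 to 41.6%) and 53.6% of old C1q-low cells (48.3 to 58.9%). The larger nonclassical-marked share of the old library was therefore also present at equal depth.

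**Figure D2:**
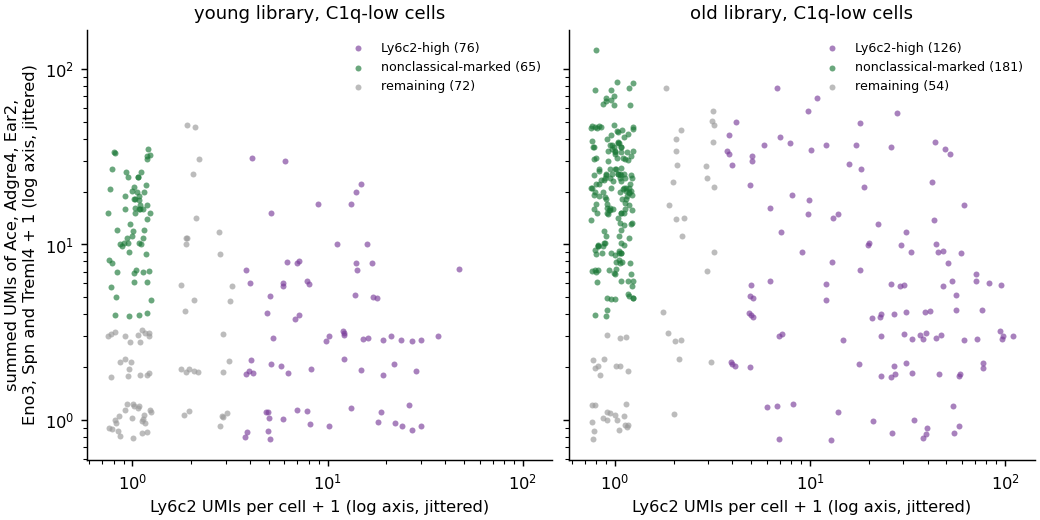
*Ly6c2* UMIs (horizontal, log axis) against the summed UMIs of *Ace*, *Adgre4*, *Ear2*, *Eno3*, *Spn* and *Treml4* (vertical, log axis) in each C1q-low cell of the young (left, 213 cells) and old (right, 361 cells) library, each with 1 added and jittered. *Ly6c2*-high cells (purple) numbered 76 and 126, nonclassical-marked cells (green) 65 and 181, and remaining cells (grey) 72 and 54.

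Other monocyte genes separated along the same line in both libraries. *F13a1*, encoding the A subunit of coagulation factor XIII, was at 540 CPM in *Ly6c2*-high and 66.1 CPM in nonclassical-marked cells of the young library, and at 671 and 4.44 CPM in the old library. *Fn1*, encoding fibronectin, was at 1157 against 83.5 CPM (young) and 808 against 5.92 CPM (old). Both were thus higher in *Ly6c2*-high cells at both ages. *Cd300e*, an activating receptor of nonclassical monocytes, was at 6.57 CPM in *Ly6c2*-high and 92.2 CPM in nonclassical-marked cells of the young library, and at 35.7 and 330 CPM in the old library. *Pou2f2*, encoding the transcription factor OCT2, was at 204 against 643 CPM and at 267 against 998 CPM. *Itgal*, encoding the integrin chain of LFA-1, was at 167 against 464 CPM and at 317 against 729 CPM. *Nr4a1* differed less, with a log2 ratio of *Ly6c2*-high over nonclassical-marked cells of -0.57 (interval, -0.72 to -0.41) for young mice and of -0.71 (-0.80 to -0.63) for old mice.

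*Ly6c2*, which defines the *Ly6c2*-high cells, and *Fcgr4*, which was higher in nonclassical-marked cells, are shown with the 250 bases before their RefSeq start (GRCm38.p6), with matches to the PU.1 motif GAGGAAGT on either strand in capitals. PU.1, encoded by *Spi1*, is the main lineage factor of monocytes and macrophages, and *Spi1* was detected in 98.1% of young and 97.8% of old C1q-low cells. *Ly6c2* lies at chr15:75108158-75111970 on the minus strand, and the near-identical neighbour *Ly6c1* (chr15:75044018-75048830) had only 3 young and 9 old UMIs in C1q-low cells. *Fcgr4*, the gene of the activating receptor for IgG2 complexes, lies at chr1:171018920-171029761 on the plus strand. The *Ly6c2* window is chr15:75111938-75112187 (minus strand) and the *Fcgr4* window chr1:171018676-171018925 (plus strand).
Ly6c2: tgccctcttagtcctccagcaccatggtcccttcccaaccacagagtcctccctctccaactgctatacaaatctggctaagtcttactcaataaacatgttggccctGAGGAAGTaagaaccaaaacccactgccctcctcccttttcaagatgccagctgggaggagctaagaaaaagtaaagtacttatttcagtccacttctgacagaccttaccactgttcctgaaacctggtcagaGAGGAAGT
Fcgr4: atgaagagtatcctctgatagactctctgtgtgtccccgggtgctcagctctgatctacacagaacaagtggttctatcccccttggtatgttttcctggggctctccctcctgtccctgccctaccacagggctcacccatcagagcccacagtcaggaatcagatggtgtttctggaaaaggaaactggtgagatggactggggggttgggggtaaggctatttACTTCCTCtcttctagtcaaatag
The matches began 142 and 8 bases before the start of *Ly6c2* on the strand of the gene, and 24 bases before that of *Fcgr4* on the other strand. A further RefSeq start of *Ly6c2* held 1 of these matches in its window. The motif was present in 802 of 32851 such windows, 2.44%. The NBRE motif AAAGGTCA was present in 1.34%, the AP-1 motif TGANTCA in 6.75% and the C/EBP motif TTGCGCAA in 0.164% of windows, and no window of *Ly6c2* or *Fcgr4* held them. None of these motifs was found in the windows of *Ccr2*, *Plac8*, *Chil3*, *Treml4*, *Ace*, *Cd300e*, *Marco*, *Saa3*, *Cd274*, *Mgl2* and *Cd209a*. A match is a string of letters and not a measured binding site.

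Compared with C1q-high cells of the same library, C1q-low cells held more transcripts of blood monocyte genes and fewer of macrophage and MHC class II genes. Of 3837 genes with at least 100 UMIs and 20 positive cells in each library, 204 (5.32%) were at least 2-fold higher and 49 (1.28%) at least 2-fold lower in both libraries. The minimums were applied to both groups of a library summed, and C1q-low cells were the larger group, so a gene could pass through C1q-low cells alone more easily than through C1q-high cells alone. Of the 204 genes, 26 had at most 3 UMIs in young C1q-high cells. The numbers in the 2 directions are therefore not compared, and the list counts are a description. Of the classical monocyte list, 13 of 14 genes were higher and none was lower, with median log2 ratios of 3.42 (young) and 2.57 (old), against 0.19 and 0.29 over all genes. Of the nonclassical list, 7 of 11 measured genes were higher and none lower. Of the tissue macrophage list, 8 of 12 were lower, with medians of -1.62 and -2.12, and of the MHC class II list 5 of 8 were lower, with medians of -1.44 and -2.14. Depth and tubule transcripts differed between the groups compared. C1q-high cells had median UMIs of 5388.5 (young) and 24164 (old), and their proximal tubule list summed to 44912 CPM (young) and 555 CPM (old), against 7879 and 9538 CPM in C1q-low cells. A few cells carried these sums. Cells with 2% or more of UMIs from the list numbered 5 among young and 0 among old C1q-high cells, and the median cell had 0.44% (young) and 0.0611% (old), against 0.251% and 0.0906% in C1q-low cells. The part of these differences in the ratios was not tested.

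**Figure D3:**
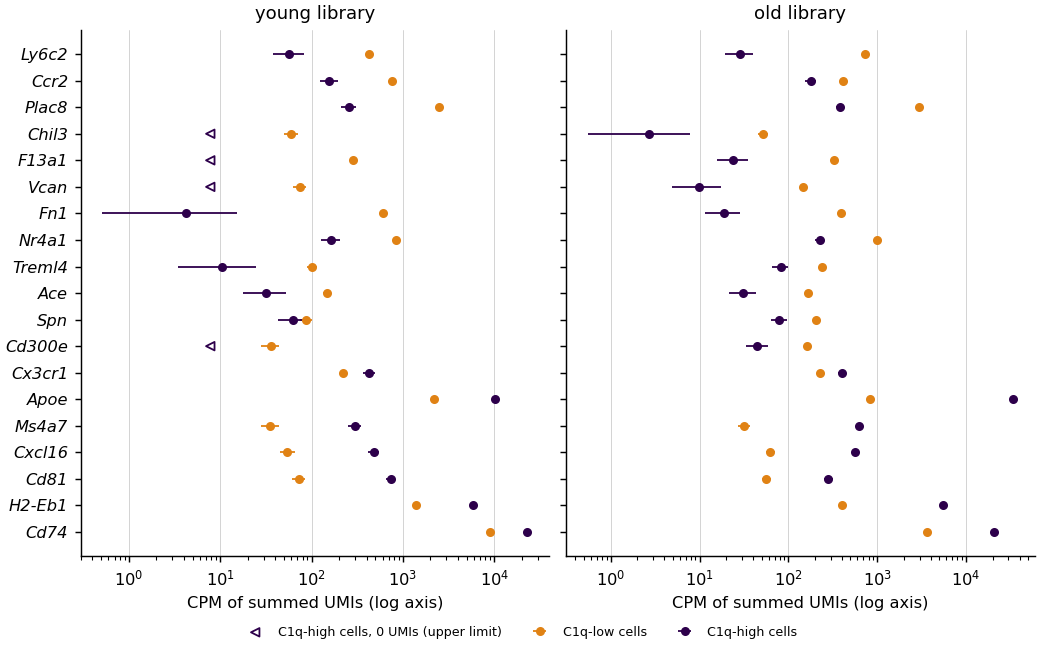
CPM (horizontal, log axis) of monocyte, macrophage and MHC class II genes in C1q-low cells (orange) and C1q-high cells (dark) of the young (left) and old (right) library, with bars for exact Poisson 95% intervals and open triangles for the upper limit of a gene with 0 UMIs. *Ly6c2*, *Ccr2* and *Plac8* lay to the right and *Apoe*, *Ms4a7*, *Cd81* and *H2-Eb1* to the left in C1q-low cells of both libraries.

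The genes with the largest ratios on the C1q-low side included several secreted or matrix proteins of classical monocytes and neutrophils. *Fn1* was at 605 CPM in young C1q-low cells against 2 UMIs (4.23 CPM) in C1q-high cells, a log2 ratio of 7.16 (5.30 to 10.2), and at 396 against 18.7 CPM in the old library, 4.41 (3.79 to 5.10). *F13a1* was at 285 and 330 CPM in C1q-low cells, against 0 UMIs in young C1q-high cells (a log2 ratio of at least 5.49, taken against 3 counts) and 24.0 CPM in the old, 3.78 (3.23 to 4.39). *Vcan*, the gene of the proteoglycan versican, was at 74.6 and 148 CPM against 0 UMIs and 9.78 CPM. *Mmp8*, a neutrophil collagenase, was at 106 and 104 CPM against 0 UMIs and 4.45 CPM. *Cd177*, a surface protein gene of neutrophils, was at 74.1 CPM in young C1q-low cells against 1 UMI in C1q-high cells, 5.13 (2.63 to 10.4), and at 48.4 against 3.56 CPM in the old library. Without the top cell of each group, *Cd177* was at 117 CPM (young) and 91.1 CPM (old) in *Ly6c2*-high cells. In nonclassical-marked cells it was at 19.5 and 0.99 CPM. *Chil3* was at 59.6 CPM against 0 UMIs in the young library, and at 51.8 CPM against 3 UMIs in the old, 4.28 (2.72 to 6.57). *Pdlim1*, *Gm9733*, *Glipr2*, *Nhsl2*, *Tppp3* and *Ms4a8a* completed the 12 genes named on this side. In all of them C1q-low cells were higher in both libraries, and *Tppp3*, for example, stood at 160 and 145 CPM against 8.47 and 17.8 CPM.

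Genes of tissue entry and of calcium binding were also higher in C1q-low cells. Of the chemokine receptor and adhesion list, 6 of 14 genes were higher. *Itga4* and *Itgb7*, the chains of integrin α4β7, were at 382 and 144 CPM in young C1q-low cells against 76.2 and 6.35 CPM in C1q-high cells, and at 484 and 129 CPM against 137 and 32.0 CPM in the old library. *Cd44*, the hyaluronan receptor, was at 559 and 690 CPM against 57.1 and 207 CPM. *S100a4*, *S100a6*, *S100a10* and *S100a11*, 4 of 8 genes of the S100 and galectin list, were higher, with *S100a4* at 1355 and 1546 CPM against 52.9 and 416 CPM. Of the type I interferon list, 4 of 12 were higher (*Irf7*, *Ifi209*, *Ifi27l2a* and *Slfn5*) and none lower. *Hp*, the haptoglobin gene, was at 448 and 1100 CPM against 29.6 and 209 CPM.

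On the other side stood genes of the MHC class II and tissue macrophage lists, among others. *Apoe*, encoding apolipoprotein E, was at 2203 CPM in young C1q-low cells against 10228 CPM in C1q-high cells, and at 830 against 33694 CPM in the old library. *Ms4a7*, a marker of mature macrophages, was at 35.2 and 31.6 CPM against 296 and 622 CPM. *Cd81*, a tetraspanin, was at 72.7 and 56.6 CPM against 734 and 283 CPM, and *Cxcl16*, the ligand of CXCR6, at 54.4 and 62.9 CPM against 480 and 566 CPM. *H2-Eb1*, an MHC class II chain, was at 1396 and 397 CPM against 5875 and 5512 CPM. *Dnase1l3*, a secreted DNase that degrades chromatin of dying cells, was detected in 4 young and 9 old C1q-low cells, at 22.5 and 2.98 CPM against 207 and 212 CPM. *Pmepa1*, *Slamf9*, *Scimp*, *Creb5*, *AW112010* and *Acp5* were also among the 12 named genes, with *Pmepa1* at 12.7 and 13.5 CPM against 288 and 266 CPM. Not all macrophage genes were past 2-fold in both libraries. *Adgre1*, encoding F4/80, was at 118 and 113 CPM in C1q-low against 260 and 148 CPM in C1q-high cells, past 2-fold in the young library only. *Cx3cr1*, of the nonclassical monocyte list, was also lower in C1q-low cells, at 223 and 229 CPM against 427 and 397 CPM. *Lgals3*, encoding galectin-3, was at 1683 against 176 CPM in the young library but at 1713 against 2526 CPM in the old library.

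Between the ages, old C1q-low cells held more transcripts of nonclassical monocyte, interferon-gamma-induced and iron-handling genes and fewer of MHC class II and dendritic cell genes than young C1q-low cells. Of 6806 genes with at least 100 UMIs and 20 positive cells over both libraries, 250 (3.67%) were at least 2-fold higher and 105 (1.54%) at least 2-fold lower in the old library. The minimums were applied to both libraries summed, and old C1q-low cells held more UMIs (5037430 against 2131965). A gene could thus pass through old cells alone more easily than through young cells alone, here and in the groups below. The numbers higher and lower are therefore not compared, and these shares are the background for the list counts below. With each cell weighted equally (the mean of the CPM of single cells), 286 genes were higher and 193 lower. In *Ly6c2*-high cells alone, 149 of 4403 genes (3.38%) were higher and 39 (0.886%) lower. In nonclassical-marked cells alone, 237 of 3949 genes (6.0%) were higher and 96 (2.43%) lower. The median log2 ratio of all genes was 0.04 in all C1q-low cells. When the cell with most UMIs of a gene was left out of the higher library, a step chosen after seeing the data, 216 of the 250 genes and 83 of the 105 were still past 2-fold. The proximal tubule list took a median of 0.202% (young) and 0.0655% (old) of UMIs in *Ly6c2*-high cells and of 0.326% and 0.109% in nonclassical-marked cells, and its part in the ratios was not tested. Its sums were carried by few cells and stood at 3072 and 5592 CPM in *Ly6c2*-high and at 14371 and 12621 CPM in nonclassical-marked cells. Since the share of nonclassical-marked cells differed between the libraries, levels within both groups are given for many of the genes named. In the sums over all C1q-low cells, a different mix of cells and a different level per cell cannot be told apart. Both groups were cut at UMI limits without thinning. Median UMIs were 11122 (young) and 17554 (old) in *Ly6c2*-high cells, and 6573 and 9111 in nonclassical-marked cells. A shallow cell can miss *Ly6c2*, so the mix within a group may also differ with depth, and the part of this in the ratios was not tested.

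**Figure D4:**
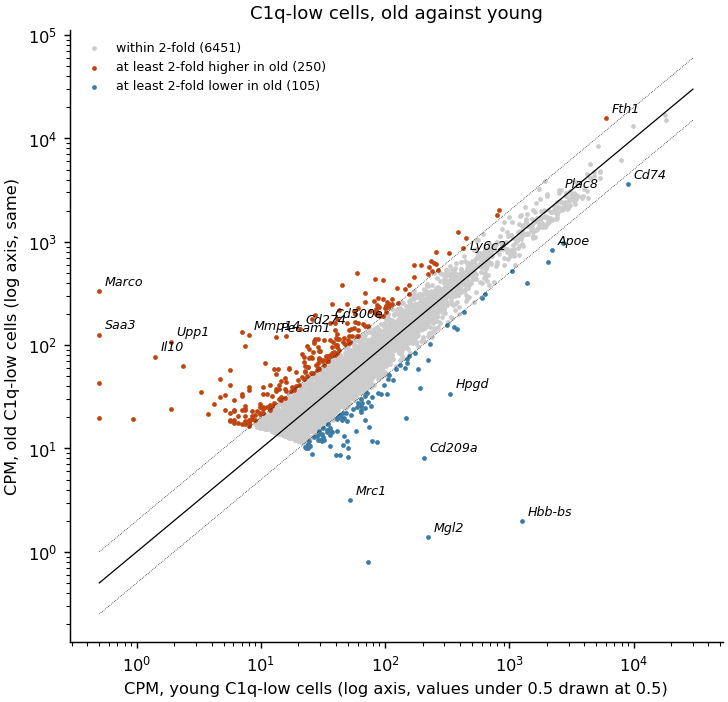
CPM in old (vertical, log axis) against young (horizontal, log axis) C1q-low cells for each of 6806 genes, with values under 0.5 drawn at 0.5, a solid line of equal levels and dotted lines of 2-fold difference. Genes at least 2-fold higher in the old library (red) numbered 250 and those at least 2-fold lower (blue) 105, with *Marco* and *Saa3* at the left edge and *Mgl2* and *Hbb-bs* at the lower right.

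Nonclassical monocyte genes were higher in the old library for 6 of 13 measured members and lower for none, with a median log2 ratio of 1.0. *Gngt2*, a G protein subunit gene, was at 389 CPM (363 to 416) in young and 1250 CPM (1219 to 1281) in old C1q-low cells. *Cd300e* was at 35.6 (28.1 to 44.6) and 164 CPM (153 to 175). *Treml4* was at 102 and 239 CPM, *Spn* at 87.2 and 206 CPM, *Eno3* at 85.8 and 211 CPM, and *Fabp4* at 35.6 and 113 CPM. *Gngt2* was also more than 2-fold higher within *Ly6c2*-high cells (262 and 691 CPM) and within nonclassical-marked cells (694 and 1942 CPM). *Itgal* (248 and 496 CPM), *Pou2f2* (335 and 585 CPM), *Adgre4* (118 and 200 CPM), *Ear2* (164 and 243 CPM), *Nr4a1* (849 and 982 CPM), *Ace* (148 and 166 CPM) and *Cx3cr1* (223 and 229 CPM) did not reach 2-fold. *Pecam1*, the adhesion molecule CD31, was at 13.1 and 119 CPM, and at 29.6 and 250 CPM in nonclassical-marked cells.

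The classical monocyte list had 1 of 14 genes higher, none lower and a median of 0.09. The gene past 2-fold was *Hp*, at 448 (420 to 478) and 1100 CPM (1072 to 1130), and it was past 2-fold within both groups. Within *Ly6c2*-high cells, *Ly6c2* was at 960 and 1506 CPM, *Plac8* at 3023 and 4535 CPM, *Ccr2* at 932 and 789 CPM, *F13a1* at 540 and 671 CPM, *Vcan* at 151 and 303 CPM and *Chil3* at 95.3 and 105 CPM. *Vcan* and *Hp* were past 2-fold there. *Fn1* was at 1157 and 808 CPM and *Thbs1*, encoding the matrix protein thrombospondin-1, at 770 and 431 CPM in the same cells. *Ifitm6* (599 and 568 CPM), *Ms4a4c* (570 and 781 CPM), *Mgst1* (417 and 430 CPM) and *Gpr141* (248 and 221 CPM) differed by less than 2-fold there too. In nonclassical-marked cells the levels of *Ccr2*, *F13a1* and *Fn1* differed by more than 2-fold. These cells had median UMIs of 6573 (young) and 9111 (old), and the part of cells that missed *Ly6c2* for lack of depth was not tested. *Ccr2* was at 433 CPM in young and 24.7 CPM in old nonclassical-marked cells, a log2 ratio of -4.13, and at 349 and 25.9 CPM when cells with 3 or more UMIs of *Cd209a* or *Retnlg* were left out. *F13a1* was at 66.1 and 4.44 CPM and *Fn1* at 83.5 and 5.92 CPM in the same cells. The dendritic cell list also differed there, at 805 (young) and 73.5 CPM (old), as did the basophil or mast cell list, at 55.6 and 2.96 CPM, and the part of such cells in these ratios was not tested. In *Ly6c2*-high cells the dendritic cell list was at 271 and 147 CPM.

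The genes with the largest ratios toward the old library were rare in or absent from young C1q-low cells. Genes could meet the minimums through old cells alone, so low young counts are partly set by the choice and are a description. *Marco*, a scavenger receptor for bacteria and particles (chr1:120474538-120505024, minus strand), had 0 UMIs in 213 young cells and 1678 UMIs in 59 of 361 old cells, at least 237-fold higher against 3 counts in the young library. The positive old cells held a median of 14 UMIs, the cell with the most held 15.9% of them, and the level was 606 CPM in nonclassical-marked and 64.8 CPM in *Ly6c2*-high cells. All other kept cells of the old library had 4.91 CPM. *Saa3*, an acute phase serum amyloid A gene (chr7:46711998-46715700, minus strand), had 0 young UMIs and 634 old UMIs in 38 cells, at least 89.4-fold higher. A single cell held 43.1% of these UMIs, and 35 of the 38 cells carried *Ly6c2*, against 152 of all 361 old C1q-low cells. The level of *Saa3* was 221 CPM in *Ly6c2*-high and 18.7 CPM in nonclassical-marked cells, so that *Marco* and *Saa3* lay in different groups, and 4 cells carried both.

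*Il10*, the gene of an anti-inflammatory cytokine (chr1:131019845-131024974, plus strand), had 3 UMIs in 2 young cells and 391 UMIs in 85 old cells, a log2 ratio of 5.79 (4.23 to 8.07). Of these 85 cells, 77 carried *Treml4*, 68 carried *Cd274* and 24 carried *Marco*. Among all 361 old C1q-low cells, 254 carried *Treml4*, 223 *Cd274* and 59 *Marco*. These counts were not thinned, so deeper cells show more of each gene. The level in the old library was 146 CPM in nonclassical-marked and 25.8 CPM in *Ly6c2*-high cells, against 4.83 CPM in all other kept cells. *Upp1*, a uridine phosphorylase gene, was at 1.88 CPM (4 UMIs) in young and 108 CPM in old C1q-low cells, detected in 141 old cells. *Ikbke*, encoding a kinase of the interferon response, was at 2.35 and 63.3 CPM, and *Mmp14*, a membrane-bound matrix protease gene, at 7.97 and 125 CPM. *Serpina3g*, a protease inhibitor gene, was at 7.50 and 97.5 CPM, and *Gpr84*, a receptor for medium-chain fatty acids, at 3.28 and 34.9 CPM. *Hpgds*, a prostaglandin D synthase gene, was at 1.88 and 24.0 CPM, and *Cd38*, an NAD-consuming ectoenzyme gene, at 0.94 CPM (2 UMIs) and 19.5 CPM, a log2 ratio of 4.37 (2.48 to 7.44). *Iigp1*, an interferon-induced GTPase gene, had 0 UMIs in young and 217 UMIs in 44 old C1q-low cells, at least 30.6-fold higher, but stood at 263 CPM in the other kept cells of the old library. Among the old *Iigp1* UMIs, 42.4% came from 1 cell.

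The genes with the largest ratios toward the young library included several lectin genes. *Mgl2*, a lectin gene of dendritic cells and macrophages (chr11:70130329-70137550, plus strand), was at 220 CPM (470 UMIs in 22 cells) in young and 1.39 CPM (7 UMIs in 6 cells) in old C1q-low cells. *Cd209a* was at 205 and 8.14 CPM, *Cd209d*, a neighbouring lectin gene of the same family, at 72.7 and 0.79 CPM, and *Mrc1*, the mannose receptor gene, at 52.5 and 3.18 CPM. In the young library, 17 of the 22 cells with *Mgl2* carried *Cd209a*, against 32 of all 213 young C1q-low cells. *Clec4b1*, another lectin gene, was at 77.9 and 11.7 CPM. *Slamf9* was at 50.2 and 8.34 CPM. Without the *Cd209a* cells the log2 ratios of *Mrc1*, *Clec4b1* and *Slamf9* were -2.83, -1.91 and -1.81, against -4.05, -2.73 and -2.59 with them. The dendritic cell list had 4 of 6 genes lower and none higher, with a median of -1.78. *Hbb-bs*, encoding beta-globin, had 2704 UMIs in young cells, of which 98.8% lay in 1 cell, and 10 UMIs in old cells.

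Other genes were lower in the old library also without the *Cd209a* cells. *Hpgd*, which encodes the enzyme that inactivates prostaglandins, was at 333 CPM (309 to 358) in 147 young cells and 33.7 CPM (28.9 to 39.2) in 52 old cells. It was at 312 and 46.8 CPM in *Ly6c2*-high cells, at 400 and 26.1 CPM in nonclassical-marked cells, and at 437 and 30 CPM in nonclassical-marked cells without *Cd209a* or *Retnlg*. *Trf*, encoding transferrin, was at 190 and 38.1 CPM, and *Fam71a* at 50.2 and 10.1 CPM, and without the *Cd209a* cells their log2 ratios were -2.19 and -2.05. *Hspa1a*, an inducible heat shock gene, was at 148 and 19.7 CPM, but also lower in all other kept cells of the old library, at 98.6 and 47.6 CPM.

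MHC class II genes were lower in the old library in the sums over all C1q-low cells, and within *Ly6c2*-high cells none passed 2-fold in this direction. Of 11 measured members, 6 were lower (*H2-Aa*, *H2-Ab1*, *H2-Eb1*, *H2-DMb1*, *Cd74* and *Ciita*) and 1 was higher (*Cd40*), with a median of -1.0. *Cd74*, the invariant chain that chaperones class II molecules, was at 8969 CPM in young and 3589 CPM in old C1q-low cells. Within *Ly6c2*-high cells the list had a median of -0.12, with none of 10 lower, and *Cd74* was at 4664 and 4265 CPM. Within nonclassical-marked cells 6 of 7 were lower, with a median of -2.25, and *Cd74* was at 8432 and 2093 CPM. *H2-Aa* was at 2490 and 522 CPM in nonclassical-marked cells, and at 1336 and 505 CPM without the *Cd209a* and *Retnlg* cells, a log2 ratio of -1.40. The dendritic cell list was at 805 and 73.5 CPM in nonclassical-marked cells, as given above, and its part in the class II ratios beyond these *Cd209a* cells was not tested. In young C1q-low cells with 3 or more *Cd209a* UMIs, *H2-Aa* stood at 7335 CPM in 26 of 27 cells. *Ciita*, the master activator of class II transcription, was at 78.8 and 31.4 CPM over all C1q-low cells. *Cd40*, a costimulatory receptor, was at 15.5 and 37.5 CPM.

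Genes induced by interferon-gamma were higher for 5 of 13 measured members and lower for none, with a median of 0.82 in which *Iigp1* was set at its bound. *Cd274*, encoding the checkpoint ligand PD-L1, was at 20.6 CPM (15 to 27.7) in 27 young cells and 142 CPM (132 to 153) in 223 old cells. It was at 19.7 and 63.2 CPM in *Ly6c2*-high and at 36.5 and 228 CPM in nonclassical-marked cells. *Gbp2*, a guanylate-binding protein gene, was at 31.9 and 111 CPM and past 2-fold within both groups. *Cxcl10*, a chemokine for CXCR3-carrying lymphocytes, was at 51.1 and 139 CPM, but 1 cell held 50.5% of its young and 38.5% of its old UMIs, and the log2 ratio was 0.75 without that old cell. *Irf1* was at 99.9 and 155 CPM.

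Type I interferon-stimulated genes did not share the higher median over all C1q-low cells, and *Ly6c2*-high and nonclassical-marked cells differed. Of 27 measured members, 4 were higher (*Ifit1*, *Ifit2*, *Ifit3* and *Rsad2*) and none was lower, and the median was -0.08. The median was 0.44 within *Ly6c2*-high cells, with 3 of 19 higher and none lower, and -0.81 within nonclassical-marked cells, with none of 6 higher and 2 lower. Over all genes the medians were 0.03 and 0.05, with 3.38% and 6.0% of genes higher. In *Ly6c2*-high cells the list thus lay on the same side as the interferon-gamma list. *Ifi27l2a*, the most abundant gene of the list, was at 1488 and 1753 CPM in *Ly6c2*-high cells and at 729 and 282 CPM in nonclassical-marked cells. *Irf7*, a transcription factor of the response, was at 146 and 198 CPM in the first and 134 and 54.7 CPM in the second. *Isg15*, a ubiquitin-like modifier gene, was at 137 and 203 CPM and at 115 and 72.0 CPM. *Ifit1*, *Ifit2* and *Ifit3*, translation inhibitors of the antiviral response, were detected in only 24 to 29 old cells. They stood at 6.57 and 20.4 CPM, 7.97 and 18.7 CPM, and 6.10 and 18.7 CPM over all C1q-low cells, and *Rsad2*, an antiviral enzyme gene, at 24.4 and 92.5 CPM. A single old cell held 35.0%, 35.1%, 31.9% and 27.9% of the old UMIs of *Ifit1*, *Ifit2*, *Ifit3* and *Rsad2*, and 5 cells held 61.6 to 79.8%. Without that cell the log2 ratios were 1.03, 0.61, 1.07 and 1.46, so *Ifit2* was no longer past 2-fold.

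**Figure D5:**
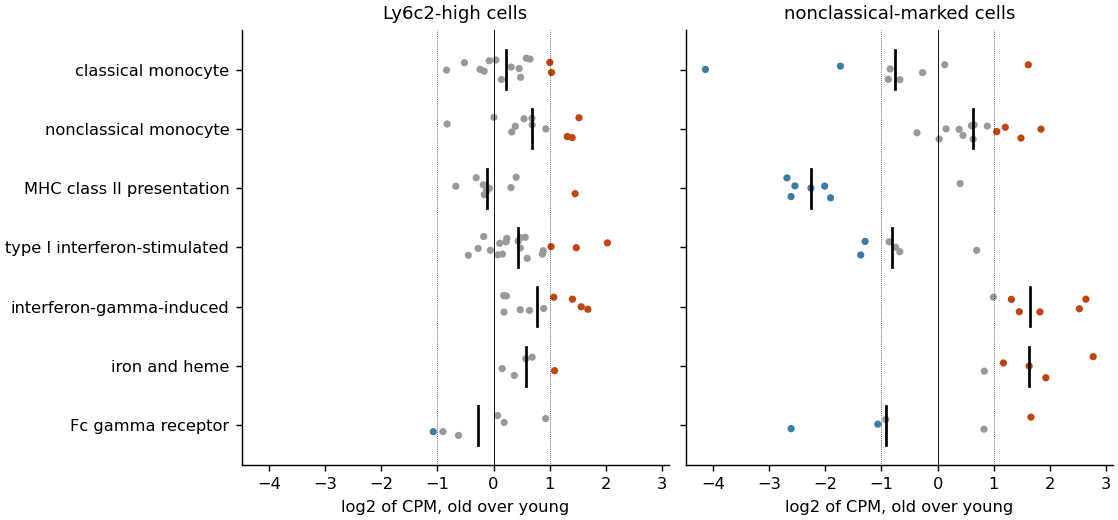
Log2 ratio of CPM, old over young, of the genes of 7 lists (1 point per gene with at least 100 UMIs and 20 positive cells, black bar for the list median) in *Ly6c2*-high cells (left) and nonclassical-marked cells (right), with dotted lines at 2-fold. MHC class II genes had medians of -0.12 and -2.25, type I interferon-stimulated genes 0.44 and -0.81, and interferon-gamma-induced genes 0.77 and 1.64.

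Genes of iron and heme handling were higher in the old library for 4 of 7 measured members and lower for none, with a median of 1.24. *Fth1*, the ferritin heavy chain, was at 5989 CPM in young and 15780 CPM in old C1q-low cells, at 6271 and 9347 CPM in *Ly6c2*-high cells and at 5803 and 22074 CPM in nonclassical-marked cells. All other kept cells had 6904 and 6353 CPM. *Hmox1*, which degrades heme, was at 66.6 and 159 CPM. *Blvrb*, a biliverdin reductase gene, was at 60.0 and 228 CPM, and *Slc11a1*, a metal transporter of the phagosome, at 101 and 240 CPM. *Ftl1* was at 5200 and 8445 CPM. The nonclassical-marked cells had the larger ratios in *Fth1*, *Blvrb* (53.9 and 368 CPM) and *Slc11a1* (122 and 377 CPM).

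Cytokine and chemokine genes were higher for 5 of 17 measured members (*Il10*, *Il1rn*, *Il27*, *Ccl5* and *Ccl24*) and lower for 1 (*Ccl6*), with a median of 0.79. *Il1rn*, the interleukin-1 receptor antagonist gene, was at 39.4 and 164 CPM, detected in 28 young and 183 old cells. *Il1b* was at 899 (859 to 940) and 1558 CPM (1524 to 1593), and *Cxcl2*, a neutrophil chemokine gene, at 1741 and 3224 CPM. *Il1b* was at 747 and 1086 CPM in *Ly6c2*-high cells and at 1151 and 1842 CPM in nonclassical-marked cells. *Ccl2*, the ligand of CCR2, was at 266 and 149 CPM, and *Tnf* at 68.9 and 72.3 CPM. *Ccl6* was at 599 and 285 CPM. *Ccl5* was at 10.3 and 33.3 CPM in C1q-low cells, but at 174 and 1846 CPM in all other kept cells, and 1 cell held 34.5% of its old UMIs. *Ccl24*, an eosinophil chemokine gene, was at 7.04 and 17.1 CPM, and 1 cell held 33.7% of its old UMIs. Without that cell the log2 ratio of *Ccl24* was 0.69, under 2-fold, and without its own top cell that of *Ccl5* was 1.09.

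Genes of immune complex uptake and inflammatory feedback differed by member. *Fcgr4* was at 81.1 CPM (69.5 to 94.2) in young and 266 CPM (252 to 280) in old C1q-low cells, at 39.4 and 75.1 CPM in *Ly6c2*-high and at 165 and 523 CPM in nonclassical-marked cells. *Fcgr2b*, the inhibitory Fc gamma receptor, was at 183 (166 to 203) and 59.4 CPM (52.8 to 66.5), and lower by more than 2-fold within both groups. The other members of the list of 6 did not reach 2-fold: *Fcer1g* was at 2021 and 2924 CPM, *Fcgr3* at 362 and 217 CPM, *Fcgr1* at 71.3 and 55.4 CPM and *Fcgrt* at 88.2 and 48.6 CPM. Of 13 genes of inflammasome and NF-kB feedback, 3 were higher and none was lower. *Bcl2a1b*, a survival gene of the BCL2 family whose near-identical copies could share reads, was at 83.0 and 432 CPM, *Clec4e*, a receptor for dead cells and mycobacteria, at 235 and 654 CPM, and *Sod2*, the mitochondrial superoxide dismutase gene, at 196 and 591 CPM. *Nlrp3* was at 132 and 120 CPM. Of 7 Toll-like receptor genes, *Tlr1* was past 2-fold (10.3 and 22.2 CPM), and *Tlr7* was at 46.0 and 64.5 CPM.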

How the data were processed

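Kidney leukocyte preparations of young and old MRL-*lpr* mice were profiled with droplet single-cell RNA-seq, with 1 library per age. The authors aligned reads to mm10 with Cell Ranger (3.1.0 in the file headers, 3 in the submitters' processing notes), and the deposited values are raw UMI counts per gene and barcode. From these counts, barcodes with under 200 genes or over 20% mitochondrial UMIs were removed, limits taken from the study's methods. Of 15076 young barcodes 11429 remained, at a median of 7881 UMIs, and of 12622 old barcodes 10232, at a median of 6933. The cells and gene lists were chosen with earlier results of these data known.

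Counts were summed over the chosen cells and expressed as CPM with exact Poisson intervals. Shares have exact Clopper-Pearson intervals and ratios exact binomial intervals, all at 95%. With 1 library per age no test was made, and a gene was counted as different past 2-fold. Genes needed 100 UMIs and 20 positive cells. The genes that chose the cells were left out. A gene at 0 was set to a floor of 3 counts. For shares of positive cells, each cell was thinned to 1000 UMIs (seed 7), and tubule cells (at least 3 proximal tubule markers, no *Ptprc* UMI) gave the background.

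Named genes were the 12 per direction with the largest ratio (the smaller of both libraries) between C1q-low and C1q-high cells, the 10 per direction between ages among genes at least as high in C1q-low as in other cells, the 5 per direction with no such limit, and members of the lists, of which some are not reported here. In simulated data, 200 genes changed 4-fold among 6806 were all recovered as past 2-fold (100%) between ages, with 2 unchanged genes past it. Between C1q-low and C1q-high cells, 200 of 3837 were all recovered, with 21 unchanged genes past 2-fold (0.577%) in the young library and 0 in the old. How the spread between cells or between mice would change these numbers was not tested. Alternatives covered the quality, marker and gene limits, thinning, scaling, doublets and cell subsets. Promoter windows came from RefSeq (GRCm38.p6) and gene positions from GENCODE vM21. *Il10* had no window. Doublets were called with Scrublet in Scanpy 1.11.5, intervals were computed with SciPy 1.17.1, and tables and figures were made with pandas 2.3.3, NumPy 2.4.6 and Matplotlib 3.10.9 under Python 3.11.15.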

Additional observations from a re-analysis of the deposited data

Results flagged for a closer look

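Several genes lay at least 2-fold on opposite sides in the groups compared. None of these differences was tested, since each rests on 1 library per age. For C1q-low over C1q-high cells, the log2 ratios of the 8 proximal tubule genes were negative in the young and positive in the old library. They were -1.96 and 3.50 for *Slc34a1*, -1.13 and 3.58 for *Lrp2*, -2.95 and 4.46 for *Kap*, and -2.01 and 4.76 for *Miox*. They were -2.19 and 4.36 for *Slc27a2*, -1.09 and 3.43 for *Gpx3*, -1.79 and 3.51 for *Fxyd2*, and -1.48 and 3.46 for *Pck1*. The summed tubule list stood at 44912 CPM in young and 555 CPM in old C1q-high cells, but 5 of the 54 young C1q-high cells held 93.8% of its young UMIs and the median cells were closer, at 0.44% of UMIs (young) and 0.0611% (old). In C1q-low cells the medians were 0.251% and 0.0906%, so that by the median C1q-low cells lay below C1q-high cells in the young library and slightly above them in the old.

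In the same comparison, *Spp1*, the osteopontin gene, had log2 ratios of 1.32 (young) and -2.24 (old), *Fabp5*, a fatty acid-binding protein gene, 2.45 and -3.43, and *Cfp*, the properdin gene, 1.04 and -1.90. For old over young, *Csf1*, the gene of the ligand of the CSF1 receptor, had a log2 ratio of 1.25 in *Ly6c2*-high and -1.41 in nonclassical-marked cells. Some of these ratios rest on single cells: 1 cell held 71.7% of the *Spp1* UMIs of young C1q-low cells, and 1 held 50.9% of those of old C1q-high cells. When the cell with most UMIs of the gene was left out of each group, a step chosen after seeing the data, the *Spp1* ratios were -0.23 (young) and -1.60 (old), and no longer lay on opposite sides. Those of *Fabp5* were 2.56 and -3.27 and those of *Cfp* 1.04 and -1.47. *Csf1* was at 1.70 in *Ly6c2*-high and -0.64 in nonclassical-marked cells, with 55.4% of its young UMIs in the nonclassical-marked cells held by 1 cell.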

How the results depend on the processing

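Of 144 alternative values of shares and counts, 122 stayed near the reported one, 22 moved and 0 reversed. Of 3774 alternative values of single genes, 606 moved and 4 reversed. The C1q-low share of kept young cells was 1.58% with at least 2 *Csf1r* UMIs and 1.46% with stricter lineage limits. In the old library it was 3.94% at no more than 10% mitochondrial UMIs, 2.67% with stricter lineage limits and 3.18% without *Retnlg* cells. *Ly6c2* was found in 13.6% (young) and 17.7% (old) of cells thinned to 500 UMIs, in 33.7% and 29.1% at 2000 UMIs and in 49.3% and 42.1% unthinned, so the order of the libraries turned with depth. Genes lower in C1q-low than C1q-high cells numbered 75 with the C1q limits set after thinning, 86 and 25 at 50 and 200 UMIs per gene, and 77 by the mean CPM of single cells, and those higher numbered 133 at 200 UMIs. Genes lower in old than young C1q-low cells numbered 187 and 57 at 50 and 200 UMIs per gene, 193 by the mean CPM of single cells, 39 in *Ly6c2*-high cells and 43 in cells with *Xist* and no Y-linked UMI, and those higher numbered 149 in *Ly6c2*-high cells. Stricter gene minimums test fewer genes, and the cause of the other shifts was not tested. *Clec10a*, lower in the old library, had a log2 ratio of 0.19 without *Cd209a* cells and 0.036 in *Ly6c2*-high cells, where *H2-DMb1* (0.31) and *H2-Eb1* (0.40) also reversed. Without *Cd209a*, *Retnlg* or tubule-RNA cells, the genes higher and lower in old C1q-low cells numbered 230 and 80, 242 and 109, and 252 and 111, and those higher and lower than in C1q-high cells 203 and 47, 239 and 47, and 206 and 58. Cells with a Y-linked UMI and no *Xist* gave 200 genes higher and 71 lower in the old library, and cells with *Xist* only gave 203 higher. The cell subsets and the removal of *Cd209a*, *Retnlg*, tubule-RNA or single top cells were chosen after seeing the data. No paired analysis was possible because each age had 1 library. With 1 library per age, differences between ages and between libraries cannot be told apart, and intervals cover counting error only.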

Other observations

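Some lysosomal, complement and growth factor genes also differed between old and young C1q-low cells. Over all genes measured, 3.67% were at least 2-fold higher and 1.54% at least 2-fold lower in the old library. Of 13 lysosome genes, *Ctsb* and *Ctsd*, proteases of the lysosome, were at least 2-fold higher in the old library and none was lower. *Ctsd* was at 258 (young) and 789 CPM (old), and at 254 and 1089 CPM in nonclassical-marked cells. Of 7 complement genes 3 were higher, among them *Cfb*, encoding factor B, at 5.63 and 40.9 CPM, and *C5ar1*, the receptor for C5a, at 54.4 and 121 CPM. Of 12 growth factor and repair genes 4 were higher, among them *Pdgfb*, a mitogen gene for mesenchymal cells, at 13.6 and 58.8 CPM, whereas *Tgfb1* was at 403 and 344 CPM. *Areg*, an EGF receptor ligand gene, was 1 of the 4, and without the old cell that held most of its UMIs its log2 ratio was 0.71, under 2-fold. *Acod1*, which makes itaconate, was outside the rule for named genes and was chosen after its values were seen. *Acod1* was detected in 17 young and 170 old cells, at 25.8 and 181 CPM.

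Of 20 myeloid transcription factor genes, 1 was higher and 2 were lower, against 3.67% higher and 1.54% lower over all genes. The counts of this list are a description only. *Nr1h3*, encoding the liver X receptor alpha, was at 15.9 and 123 CPM, *Runx3* at 97.1 and 40.9 CPM, and *Batf3*, a dendritic cell factor gene, at 49.7 and 11.7 CPM. *Cebpb*, a factor of nonclassical monocyte survival, was at 2580 and 3200 CPM. The early response and heat shock list had 4 of 14 genes lower and none higher. *Atf3* was at 1048 and 524 CPM in C1q-low cells but at 102 and 110 CPM in all other kept cells, whereas *Hspa1b* was lower in both, at 85.4 and 11.5 CPM and at 126 and 56.6 CPM. *Fas*, the gene mutated in these mice, was at 9.85 CPM in 18 young and 22.2 CPM in 87 old C1q-low cells.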
